A study of Homo sapiens with 6 samples.

Results

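The genes described here are 47 interferon-stimulated effector genes, the genes whose proteins carry out the antiviral response of a cell, chosen by symbol from a list of known members. The rule itself uses no measured value, but SAMHD1, IFI27, OAS1, TRIM14, XAF1 and LY6E were singled out by the study on these same libraries. Of the 47 symbols, 46 had a row of their own among the 24551 genes listed, and 37 of the 46 had a mean of at least 1 FPKM over all libraries. TRIM25, a ubiquitin and ISG15 ligase, was listed only in a joint row with the microRNA gene MIR3614 and was kept out of the counts. The joint row had 37.3, 28.0 and 25.3 FPKM in 769-P cells with control siRNA, siRNA 1 and siRNA 2, and 33.7, 32.4 and 26.4 FPKM in DU145 cells. RNA-Seq was carried out on 6 libraries from 2 human cancer cell lines, DU145 from prostate and 769-P from clear cell renal carcinoma. In each line 1 library came from cells with the control siRNA (NC) and 1 each from cells with SPOP siRNA 1 and SPOP siRNA 2, and no interferon or other agent is named for any group. SPOP is the adaptor that brings substrates to a CUL3 ubiquitin ligase, and the comparison asks how its knockdown changed these genes in each line. FPKM counts fragments per kilobase of transcript and is scaled to the fragments mapped in the library, so levels of different genes are compared here per length.

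Interferon that binds its receptor activates the JAK kinases, which phosphorylate STAT proteins. Together with IRF9 these form a factor that binds the interferon-stimulated response element in the promoters of target genes. The target genes include sensors of foreign RNA, enzymes that degrade RNA or limit nucleotides, membrane proteins that block virus entry or release, and the ubiquitin-like modifier ISG15. Many tumour lines express some of these genes without added interferon.

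SPOP was measured first. It had 11.6 FPKM in the 769-P control, 1.53 with siRNA 1 and 1.39 with siRNA 2, and 16.1, 2.77 and 2.96 FPKM in DU145, so at most 18.4% of the control value was left. The renal factor PAX8 had 106 to 125 FPKM in the 769-P libraries, whereas CA9 was listed at 0 there, and the prostate genes KLK3, KLK2, TMPRSS2 and FOLH1 were at or near 0 in DU145. Summed over 6 leukocyte and stroma markers, the level was between 0.313 and 1.77 FPKM in every library, and 1 of the 6, CD14, reached 1 FPKM in any. The DU145 control and the 769-P siRNA 2 library carried low values for genes that these cells should lack, with 287 and 237 of 366 olfactory receptor genes above 0 against 3 to 5 in each other library. Their mean over these genes was 0.345 and 0.227 FPKM. Values of members below about that level in these 2 libraries therefore do not stand apart from this background.

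Letter patterns of the response element were searched for in the promoters. RefSeq promoters, from 250 bases before to 50 after a transcription start, were found for 40 of the 47 members, and USP18, IFIT2, OAS2, OASL, IFITM2, LY6E and MX2 had none. They come from the GRCh38.p14 table. Of the 53 promoters of these members, 52 were placed in GRCh37, the build of the deposited values, by exact match. The HERC5 promoter was not placed and was kept in the counts. The sequences below belong to the members on which the results turn. IFI6, IFI27, BST2 and ISG15 decreased in 769-P and hold the 12-letter form described next, and OAS1 decreased there without that form. DTX3L is shown because its window also holds a start of its divergent neighbour PARP9. SP110 decreased in DU145 and not in 769-P. Capitals mark each match, on either strand, to the 12-letter element that reads GAAA, any 2 bases, then GAAACT.
IFI6, chr1:27998654-27998953, minus strand: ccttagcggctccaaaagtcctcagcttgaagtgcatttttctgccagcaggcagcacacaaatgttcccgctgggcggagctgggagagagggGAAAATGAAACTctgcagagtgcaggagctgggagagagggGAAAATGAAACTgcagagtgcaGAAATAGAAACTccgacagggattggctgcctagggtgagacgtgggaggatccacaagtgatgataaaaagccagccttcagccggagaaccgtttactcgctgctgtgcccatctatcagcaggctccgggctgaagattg
IFI27, chr14:94576832-94577131, plus strand: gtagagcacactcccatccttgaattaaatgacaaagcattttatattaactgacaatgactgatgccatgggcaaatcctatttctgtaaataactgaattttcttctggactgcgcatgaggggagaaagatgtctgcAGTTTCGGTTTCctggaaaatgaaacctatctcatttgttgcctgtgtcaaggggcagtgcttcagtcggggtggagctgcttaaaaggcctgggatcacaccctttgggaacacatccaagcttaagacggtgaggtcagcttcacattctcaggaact
BST2, chr19:17516390-17516689, minus strand: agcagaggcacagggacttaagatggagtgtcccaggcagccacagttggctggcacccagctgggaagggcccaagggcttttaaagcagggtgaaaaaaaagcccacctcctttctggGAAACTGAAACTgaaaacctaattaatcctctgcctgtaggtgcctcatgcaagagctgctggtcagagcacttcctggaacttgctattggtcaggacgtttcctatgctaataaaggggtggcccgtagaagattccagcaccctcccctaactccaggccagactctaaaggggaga
ISG15, chr1:948627-948926, plus strand: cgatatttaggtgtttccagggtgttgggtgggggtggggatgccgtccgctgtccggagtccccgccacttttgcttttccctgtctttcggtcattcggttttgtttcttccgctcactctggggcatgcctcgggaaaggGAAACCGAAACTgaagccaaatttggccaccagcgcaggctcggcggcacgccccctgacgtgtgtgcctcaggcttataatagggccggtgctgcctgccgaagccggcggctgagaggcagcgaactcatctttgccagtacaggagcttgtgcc
DTX3L, chr3:122282935-122283234, plus strand: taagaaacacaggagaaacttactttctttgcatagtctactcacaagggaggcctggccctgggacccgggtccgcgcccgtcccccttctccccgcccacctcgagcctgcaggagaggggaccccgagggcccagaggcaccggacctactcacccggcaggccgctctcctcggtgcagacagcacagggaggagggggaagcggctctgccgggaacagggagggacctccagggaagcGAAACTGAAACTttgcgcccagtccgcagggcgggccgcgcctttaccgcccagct
OAS1, chr12:113344517-113344816, plus strand: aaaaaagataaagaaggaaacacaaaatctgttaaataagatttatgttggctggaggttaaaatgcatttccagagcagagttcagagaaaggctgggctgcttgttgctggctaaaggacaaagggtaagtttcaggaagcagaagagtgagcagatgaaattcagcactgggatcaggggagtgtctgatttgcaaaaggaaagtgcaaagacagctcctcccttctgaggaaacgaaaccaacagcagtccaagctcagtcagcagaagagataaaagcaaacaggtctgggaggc
SP110, chr2:231090302-231090601, minus strand: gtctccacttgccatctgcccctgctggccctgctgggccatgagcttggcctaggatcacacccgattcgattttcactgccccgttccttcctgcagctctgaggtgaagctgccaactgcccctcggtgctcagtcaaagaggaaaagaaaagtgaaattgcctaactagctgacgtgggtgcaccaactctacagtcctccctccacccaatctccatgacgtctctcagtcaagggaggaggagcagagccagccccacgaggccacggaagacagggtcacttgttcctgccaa
The IFI6 promoter holds 3 matches, at -156, -115 and -93 from the start (first base of the match). IFI27, BST2, ISG15 and DTX3L hold 1 match each, and the windows of OAS1 and SP110 hold 0. Both of these windows hold GAAA repeats at other spacings, such as gaaacgaaac in OAS1, which the 12 letters do not match.

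Most of the 46 members were lower in 769-P after SPOP knockdown, and few moved as far in DU145. A gene was called decreased or increased when each siRNA library differed from the control of its line at least 2-fold on log2(FPKM + 1), both one way. On this scale a gene under 1 FPKM in the control cannot be called decreased. At least 1 FPKM in the control was reached by 38 of the 46 members in 769-P and by 32 in DU145. In 769-P 23 of 46 members decreased, against 0.322% of all genes listed and 0.565% of the 11865 genes whose mean reached 1 FPKM, and 0 increased (0.326% and 0.657%). In DU145 4 of 46 decreased (IFI6, IFIT3, OAS3 and SP110), against 0.338% and 0.329% of the same sets of genes, and 0 increased (0.35% and 0.666%). At 1.5-fold 33 of 46 decreased in 769-P, against 2% and 3.73%, and 8 in DU145, against 2.03% and 1.19%. Taken alone, siRNA 1 lowered 9 members at least 2-fold in DU145 and siRNA 2 lowered 5, against 1.2% and 0.652% of all genes listed. In 769-P these numbers were 28 and 24, against 1.34% and 0.631%. In both lines 3 of the 37 members among the 11865 genes decreased (IFI6, IFIT3 and OAS3), against 0.0759% of the 11865 genes. As a share of the genes decreased in DU145, these were 3 of 4 members. Of all 39 of the 11865 genes that decreased in DU145, members included, 9 also decreased in 769-P. The median log2 fold change of the 46 members was -1.26 in 769-P and -0.28 in DU145, where the median of those 11865 genes was -0.03 and 0.09. The DU145 median was -0.13 with the background subtracted and -0.45 with siRNA 1 alone. Both siRNA libraries lay below the control for 43 members in 769-P (background 23.7% of all genes listed and 39.5% of the 11865) and for 30 in DU145 (27.9% and 22.2%). They lay above it for IFITM2 and RTP4 in 769-P (19.6% and 31.5%) and for IFITM1, LY6E and ISG20 in DU145 (25.2% and 43.5%). Each control is a single library, so no replicate checks the control side of these differences, and in bulk RNA fewer cells that express a gene and less RNA per cell cannot be told apart.

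**Figure D1:**
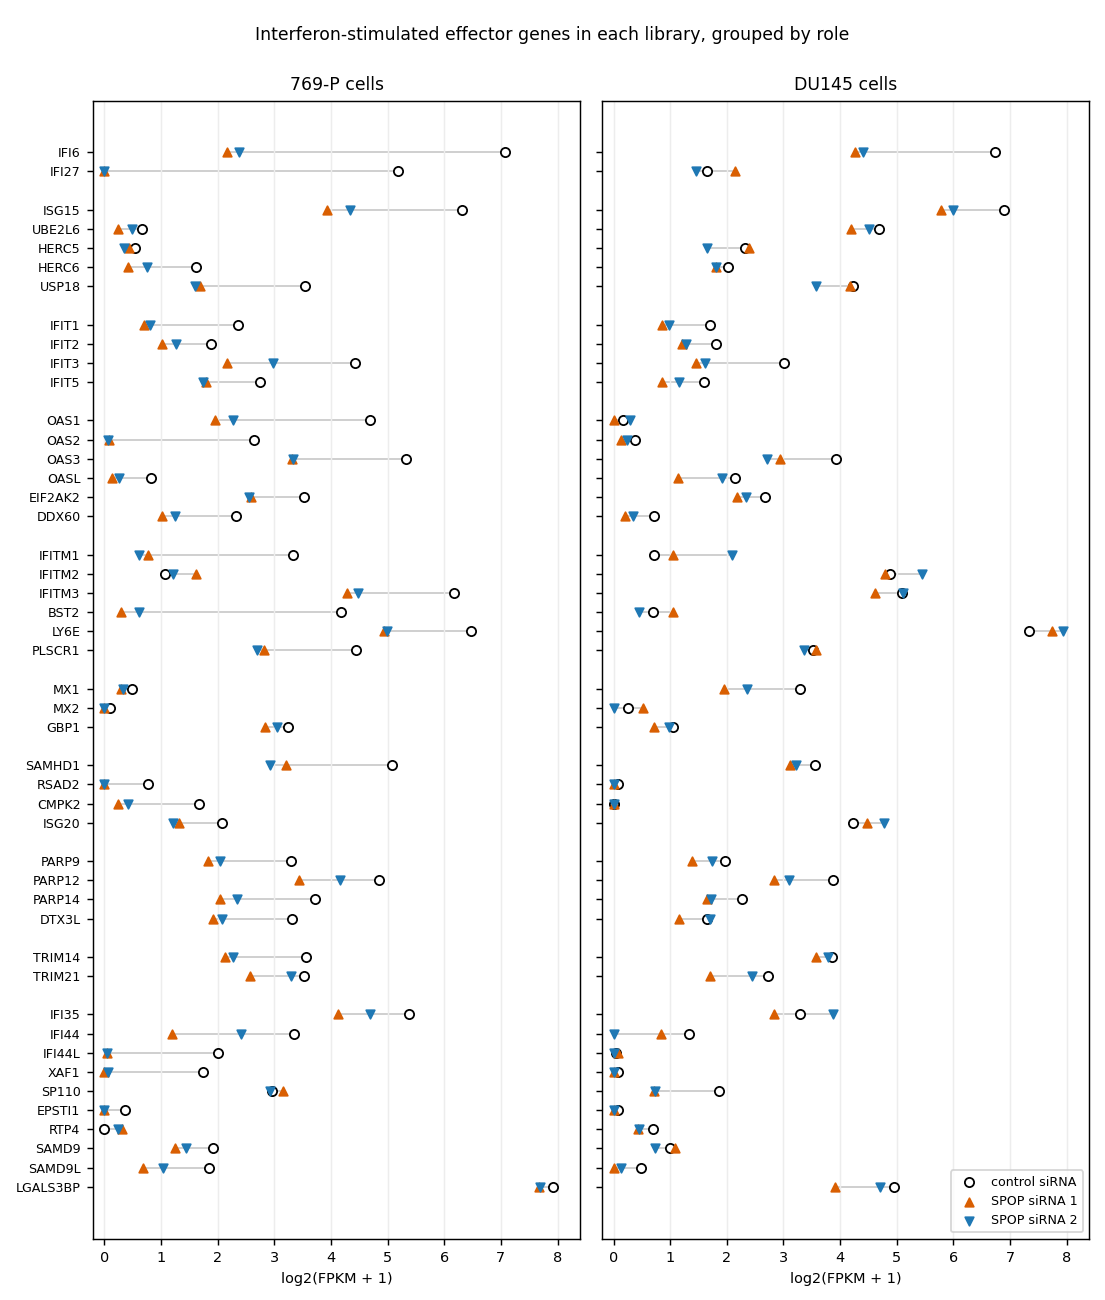
Level of each of the 46 members in each library on the log2(FPKM + 1) scale, in 769-P (left) and DU145 (right), with rows grouped by role. Open circles are the control, upward triangles siRNA 1 and downward triangles siRNA 2, and grey lines span the libraries of a line. In 769-P both siRNA points lie left of the control for 43 of 46 members, and in DU145 for 30.

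The members were also more abundant in 769-P before knockdown. In the controls 33 of the 46 were higher in 769-P and 13 in DU145, where 27.2% of all genes listed and 46.2% of the 11865 were higher in 769-P. The median of the members was 8.61 FPKM against 2.997 FPKM. On the log2(FPKM + 1) scale 23 were at least 2-fold higher in 769-P, 6 were at least 2-fold higher in DU145 and 17 lay within 2-fold, where 9.9% and 17.3% of the 11865 genes were 2-fold higher in 769-P and in DU145. The summed level of the members was 1019 FPKM in the 769-P control, 378 with siRNA 1 and 418 with siRNA 2, and it was 672, 488 and 585 FPKM in DU145.

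IFI6 and IFI27 encode small interferon-induced proteins of one family, of which IFI6 is known as an inhibitor of apoptosis. In 769-P IFI6 had 134 FPKM in the control, 3.50 with siRNA 1 and 4.16 with siRNA 2, and 2.86% of the control value was left. In DU145 it had 106, 18.2 and 20.3 FPKM, with 18.2% left. The siRNA libraries lay far from the control and close to each other in both lines. For IFI27 the 769-P control had 35.5 FPKM, and each siRNA library listed it at 0. Its DU145 values were 2.13 FPKM in the control, 3.44 with siRNA 1 and 1.73 with siRNA 2, so the control lay between the siRNA libraries. Of the 11865 genes, IFI27 and IFI6 ranked 6th and 9th from the lowest log2 fold change in 769-P, and IFI6 ranked 20th in DU145. The longest coding transcript of IFI6 shares 14.3% of its windows of 100 bases with LINC02574, so some of its reads could belong to that gene.

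ISG15 is joined to target proteins by UBE2L6 and the ligases HERC5 and TRIM25 and is removed by USP18. In 769-P 2 of the 5 members of this group with rows, ISG15 and USP18, decreased, and in DU145 0 did. ISG15 had 78.6, 14.3 and 19.3 FPKM in the 769-P control, siRNA 1 and siRNA 2 libraries and 117, 54.0 and 62.7 FPKM in the DU145 ones. Its change in DU145, to 49.7% of the control, was close to the 2-fold threshold, which it passed with siRNA 1 and missed with siRNA 2. USP18 had 10.6, 2.24 and 2.01 FPKM in 769-P. In DU145 USP18 was more abundant, at 17.7 FPKM in the control, 17.1 with siRNA 1 and 10.8 with siRNA 2. Both siRNA libraries were lower in each line, by less in DU145 than the spread between the siRNAs. USP18 shares 17.7% of its windows with USP41 and an unnamed gene, so its values are uncertain. UBE2L6, the conjugating enzyme, was almost restricted to DU145, with 24.8, 17.2 and 21.7 FPKM there and 0.579, 0.181 and 0.409 FPKM in 769-P. HERC5 had a control level of 4.02 FPKM in DU145 and 0.446 FPKM in 769-P, and HERC6 had 3.07 and 2.07 FPKM. In 769-P HERC5 kept 70.5% of the control and HERC6 24.7%. HERC6 missed the call there with siRNA 2 on log2(FPKM + 1).

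The IFIT proteins bind viral RNA through its 5′ end, and the 4 genes lie in a row on chromosome 10 in the order IFIT2, IFIT3, IFIT1 and IFIT5. All 4 were lower with both siRNAs in both lines, and IFIT1 and IFIT3 decreased in 769-P and IFIT3 in DU145. IFIT3 had 20.4, 3.49 and 6.88 FPKM in 769-P and 7.07, 1.75 and 2.05 FPKM in DU145, which left 25.4% and 26.8% of the control. IFIT1 had 4.15, 0.618 and 0.754 FPKM in 769-P, and 2.24, 0.808 and 0.970 FPKM in DU145. IFIT3 thus kept a like share in both lines, whereas IFIT1 kept 16.5% in 769-P and 39.7% in DU145. IFIT2 and IFIT5 kept between 42.1% and 53.9% of their control values, which were 2.03 to 5.74 FPKM.

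OAS1, OAS2 and OAS3 make the oligoadenylates that activate RNase L, and the genes lie next to each other on chromosome 12. All 3 decreased in 769-P, as did DDX60, a helicase linked to RNA sensing. OAS1 had 24.9 FPKM in the 769-P control, 2.85 with siRNA 1 and 3.84 with siRNA 2. OAS2 had 5.21, 0.0593 and 0.0448 FPKM, and OAS3 had 38.9, 8.95 and 9.08 FPKM. In DU145 only OAS3 of these 3 was above 1 FPKM in the control, at 14.3 FPKM, and it decreased to 6.62 and 5.56 FPKM. The DU145 values of OAS1 were 0.120, 0 and 0.222 FPKM and those of OAS2 were 0.293, 0.0916 and 0.186 FPKM. OAS3 is separated from OAS1 by 4831 bases and from OAS2 by 1934 bases, so neighbours of the same family differed in whether DU145 expressed them. DDX60 had 3.98, 1.02 and 1.36 FPKM in 769-P and 0.650, 0.157 and 0.267 FPKM in DU145. EIF2AK2, the RNA-activated kinase PKR, had 10.5, 4.99 and 4.87 FPKM in 769-P and 5.37, 3.52 and 4.06 FPKM in DU145. It kept 46.8% of the control in 769-P and was just short of 2-fold on the log2(FPKM + 1) scale. OASL, which binds RNA without making oligoadenylate, had control levels of 0.776 FPKM in 769-P and 3.39 FPKM in DU145, and both siRNA libraries were lower in each line.

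Among the membrane proteins that restrict viruses, 5 of 6 decreased in 769-P and 0 in DU145. The IFITM proteins block the fusion of virus and cell membranes. IFITM3 had 70.9, 18.5 and 21.3 FPKM in 769-P and 33.2, 23.4 and 33.3 FPKM in DU145. IFITM1 had 9.08, 0.705 and 0.532 FPKM in 769-P and 0.633, 1.07 and 3.27 FPKM in DU145. The control lay above the siRNA libraries for IFITM1 in 769-P and below them in DU145, but 34% of its windows are shared with IFITM3 and an unnamed gene, so reads could be split between them. IFITM2, their neighbour on chromosome 11, followed neither, with 1.11, 2.07 and 1.30 FPKM in 769-P and 28.5, 26.7 and 42.6 FPKM in DU145. BST2, or tetherin, holds budding virus at the cell surface. Its values were 17.0, 0.231 and 0.522 FPKM in 769-P, with 2.21% of the control left, and 0.625, 1.06 and 0.359 FPKM in DU145. LY6E, a surface protein that affects virus entry, had 87.3, 29.8 and 30.9 FPKM in 769-P and 160, 212 and 243 FPKM in DU145, where it was the most abundant member. Both siRNA libraries of LY6E thus lay below the control in 769-P, with 34.7% left, and above it in DU145, at 142%. PLSCR1, a scramblase of membrane phospholipids, had 20.7, 6.05 and 5.45 FPKM in 769-P and 10.5, 11.0 and 9.31 FPKM in DU145.

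The GTPases MX1 and MX2 trap viral nucleocapsids, and GBP1 is a guanylate-binding protein. Of these 3, 0 were called decreased in either line (background 0.322% of all genes listed in 769-P and 0.338% in DU145). MX1 in 769-P and MX2 in both lines were under 1 FPKM in the control, where a decrease could not be called. MX1 had 8.80, 2.88 and 4.12 FPKM in DU145, where it kept 39.7% of the control and reached 2-fold with siRNA 1 but not with siRNA 2. In 769-P MX1 was low, at 0.404, 0.219 and 0.248 FPKM. MX2 had at most 0.441 FPKM in any library. GBP1 had 8.43, 6.10 and 7.22 FPKM in 769-P, so the gene was expressed there and kept 79.0% of the control.

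SAMHD1 hydrolyses deoxynucleotides, CMPK2 is a mitochondrial nucleotide kinase, RSAD2 (viperin) makes a chain-terminating nucleotide and ISG20 is an RNA exonuclease. SAMHD1 had 32.7, 8.27 and 6.54 FPKM in 769-P and 10.8, 7.65 and 8.30 FPKM in DU145, and it decreased in 769-P to 22.6% of the control. CMPK2 had 2.19, 0.177 and 0.333 FPKM in 769-P and was listed at 0 in every DU145 library. ISG20 had 3.19, 1.49 and 1.31 FPKM in 769-P and 17.7, 21.3 and 26.3 FPKM in DU145. Like LY6E, it lay below the control with both siRNAs in 769-P and above it with both in DU145. RSAD2, which overlaps CMPK2 on the opposite strand by 1079 bases, had 0.702 FPKM in the control of 769-P, and both siRNA libraries listed it at 0. How strand was used in counting is not given in the sources used here, so reads in that overlap cannot be assigned.

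PARP9, PARP12 and PARP14 belong to the ADP-ribosyltransferase family, and DTX3L is the ubiquitin ligase that forms a complex with PARP9. PARP14 had 12.2, 3.11 and 4.04 FPKM in 769-P and 3.83, 2.14 and 2.30 FPKM in DU145. PARP9 had 8.78, 2.57 and 3.11 FPKM in 769-P, and its partner DTX3L had 8.97, 2.76 and 3.22 FPKM. These 2 divergent genes, which overlap by 240 bases, kept 32.3% and 33.3% of the control in 769-P. In DU145 PARP9 had 2.92, 1.61 and 2.34 FPKM and DTX3L 2.12, 1.22 and 2.25 FPKM. PARP12 had 27.9, 9.78 and 16.8 FPKM in 769-P, where only siRNA 1 passed 2-fold, and 13.7, 6.14 and 7.54 FPKM in DU145.

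TRIM14, an adaptor of antiviral signalling, had 10.8, 3.38 and 3.85 FPKM in 769-P and 13.5, 10.8 and 12.7 FPKM in DU145. TRIM21, an antibody receptor and ubiquitin ligase of the cytosol, had 10.5, 4.97 and 8.86 FPKM in 769-P and 5.64, 2.26 and 4.42 FPKM in DU145. TRIM14 decreased in 769-P. TRIM21 was under 2-fold on log2(FPKM + 1) with each siRNA there, just short of it with siRNA 1, at 47.4% of the control FPKM. In DU145 TRIM21 passed with siRNA 1 alone.

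Of the 10 other members, IFI44L and XAF1 decreased in 769-P and SP110 in DU145. IFI44L had 3.03, 0.0351 and 0.0265 FPKM in 769-P. XAF1, a proapoptotic partner of XIAP, had 2.35, 0 and 0.0471 FPKM. Neither was above 0.0568 FPKM in any DU145 library. SP110, a nuclear body protein, had 6.73, 7.93 and 6.58 FPKM in 769-P and 2.64, 0.640 and 0.651 FPKM in DU145, so it kept 24.4% of the control in DU145 and its siRNA libraries lay on either side of the control in 769-P. IFI35 had 40.4, 16.4 and 24.9 FPKM in 769-P and 8.75, 6.15 and 13.6 FPKM in DU145. LGALS3BP, a secreted glycoprotein, was the most abundant member in 769-P, with 240, 203 and 206 FPKM there and 29.8, 14.1 and 25.2 FPKM in DU145. It kept 85.3% of the control in 769-P and was not called in either line. IFI44, SAMD9, SAMD9L, RTP4 and EPSTI1 had control levels between 0 and 9.12 FPKM and were not called in either line. In 769-P IFI44 kept 30.7% and SAMD9L 31.6% of the control, and both missed the call with siRNA 2 on log2(FPKM + 1). SAMD9 kept 55.4% there. EPSTI1 was at 0.287 FPKM in the 769-P control, too low to be called decreased, and RTP4 lay above its control.

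Genes expressed in both lines were then set beside genes expressed in 1 line. At 1 FPKM or more in a control, 28 members were expressed in both, 10 in 769-P only (OAS1, OAS2, DDX60, IFITM1, BST2, CMPK2, IFI44L, XAF1, SAMD9 and SAMD9L), 4 in DU145 only (UBE2L6, HERC5, OASL and MX1) and 4 in neither (MX2, RSAD2, EPSTI1 and RTP4). The nearest values to the threshold were 0.984 FPKM for SAMD9 and 1.07 FPKM for GBP1 in the DU145 control, and 0.776 FPKM for OASL and 1.11 FPKM for IFITM2 in the 769-P control. In 769-P 15 of the 28 members expressed in both lines decreased, against 0.515% of the 10098 genes of that class, and 8 of the 10 expressed in 769-P only, against 4.49% of 601 genes. Their median log2 fold changes were -1.35 and -1.84, where the class medians over all genes were -0.06 and -0.08. In share of the control, the median member kept 32.8% and 9.22%, and the median gene of the class 96.1% and 94.1%. The order of the 2 classes depends on the threshold. At 5 FPKM or more, 15 members were expressed in both and 12 in 769-P only, with medians of -1.69 and -1.54 on the log2 scale and 28.1% and 29.99% of the control left. The 769-P control enters both the class and the change. When the members were split by the DU145 control alone, which does not enter the 769-P change, the medians in 769-P were -1.19 for 32 members at 1 FPKM or more and -1.27 for 14 members below it, beside -0.04 and 0.11 for all tested genes.

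**Figure D2:**
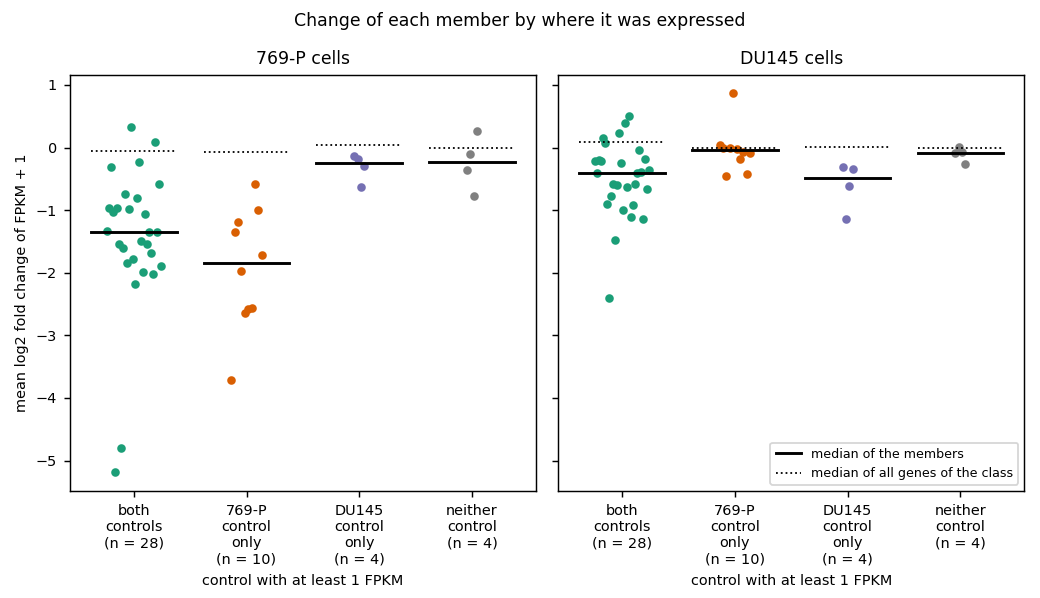
Mean log2 fold change of FPKM + 1 over the siRNAs for each member, in 769-P (left) and DU145 (right), by the control in which the member had at least 1 FPKM. Solid lines are medians of the members and dotted lines medians of all genes of the class. In 769-P the members expressed in both lines and in 769-P only lie mostly below the dotted line, with medians of -1.35 and -1.84.

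In DU145 the class medians were -0.41 for the 28 members expressed in both lines, where all genes of the class had 0.08, and -0.48 for the 4 expressed in DU145 only, where all genes had 0.02. The members of these classes kept a median of 69.1% and 68.4% of the control, and the genes of the classes 108% and 104%. All 4 DU145 calls were among the members expressed in both lines (4 of 28; background 0.257%). A member under 1 FPKM in the DU145 control could not be called decreased on log2(FPKM + 1). Only the 4 expressed in DU145 only could therefore have been called besides these 28. The smaller change in DU145 was also seen for abundant members. Of the 15 members with at least 5 FPKM in both controls, 15 were lower with both siRNAs in 769-P and 11 in DU145, against 42.7% and 21.1% of the 6693 genes at that level. The medians left were 28.1% and 70.6% of the control for these members and 96.6% and 107.5% for all genes at that level.

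The lines were compared gene by gene. Both 769-P log2 fold changes lay below both DU145 ones for 32 of the 46 members, against 21.4% of all genes listed and 34.8% of the 11865, and this held for 20 of the 28 expressed in both lines, against 35.6% of the genes of that class. The reverse was seen for MX1, SP110 and RTP4 (background 22.9% and 13.2%). Across the 46 members the mean changes of the lines had a Spearman correlation of -0.06 and a Pearson correlation of 0.11. Across the 28 expressed in both lines these were 0.19 and 0.31, and across the 11865 genes 0.44 and 0.35. The lines share no library, and genes are not independent replicates. The median absolute difference between the siRNAs of a line was 0.17 on the log2 scale for the 46 members in 769-P and 0.24 in DU145. For the 11865 genes it was 0.23 and 0.27. The 46 include members with a mean under 1 FPKM, whose differences the pseudocount shrinks, so these sets are unlike. The siRNA 1 value was the lower one for 29 members in 769-P and for 32 in DU145, against 38.7% and 36.3% of all genes listed and 40.4% and 55.1% of the 11865.

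**Figure D3:**
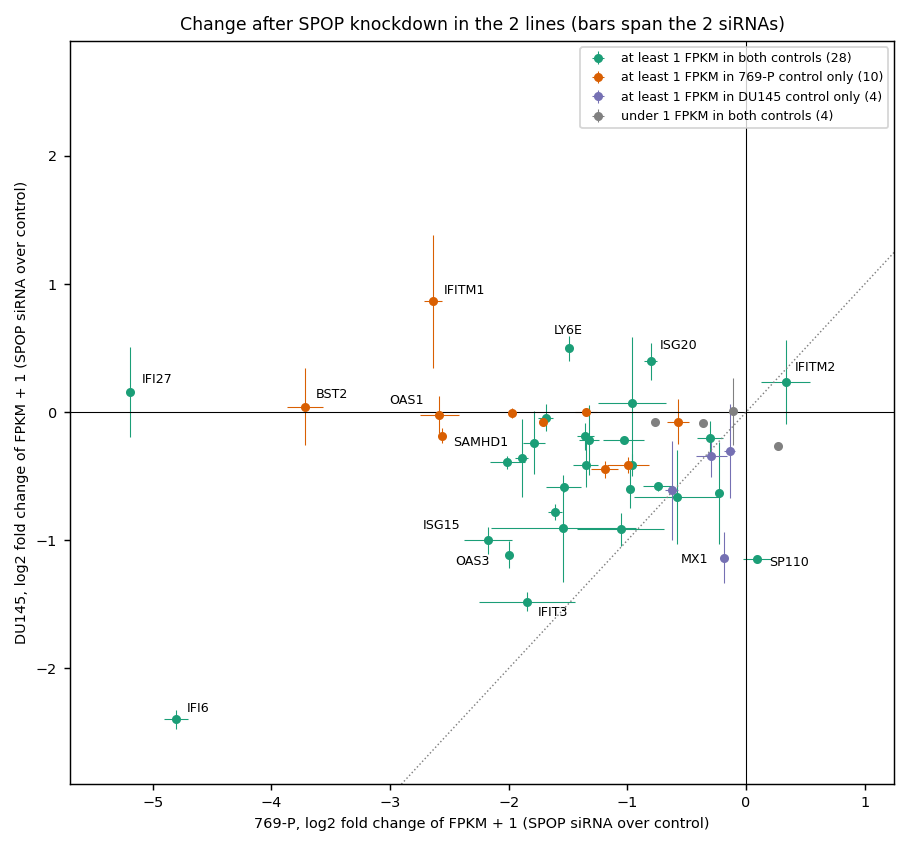
Mean log2 fold change of FPKM + 1 of each member in 769-P (horizontal) and DU145 (vertical), with bars that span the siRNAs and colours for the control in which the member was expressed. On the dotted line both lines change alike. Most members lie above it, IFI6 at -4.81 and -2.40, while SP110 and MX1 lie below it.

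With limma fitted across the 11865 genes, 2 of the 37 members tested passed an adjusted p of 0.05 in 769-P, against 0.101% of all genes. IFI6 had a log2 fold change of -4.81 (standard error 0.23, limma adjusted p = 0.00361) and IFI27 one of -5.19 (standard error 0.35, limma adjusted p = 0.0161). The value of IFI27 depends on the pseudocount of 1, since its siRNA libraries were listed at 0. Next came BST2, with -3.72 and a limma adjusted p of 0.0655. With the background subtracted BST2 passed (limma adjusted p = 0.0456), and in the other fits on all libraries that tested it the value was 0.0520 to 0.376. Without any 1 of the 4 siRNA libraries, neither gene passed, and the limma adjusted p was 0.128 to 0.150 for IFI6 and 0.0732 to 0.717 for IFI27. Without the filter on mean FPKM neither passed in 769-P, with limma adjusted p values of 0.0867 and 0.253. In DU145 0 members passed in limma (background 0.135%), and IFI6 had the lowest adjusted p, 0.0584. Over the alternatives the limma adjusted p of IFI6 in DU145 ranged from 0.0251 to 0.796, and it passed without the filter (0.0251) and with quantile normalization (0.0310), among others. At an unadjusted p under 0.05, 26 of the 37 were lower in 769-P (background 3.37%) and 8 of the 37 in DU145 (background 1.11%), and 0 were higher in either line (background 3.6% and 5.16%). The difference between the lines passed for IFI27 alone (5.34, limma adjusted p = 0.0467; background 0.169%) and missed the threshold in most alternative fits. At an unadjusted p under 0.05 it reached 16 of the 37 (background 2.74%). For the other 36 members tested, a difference between the lines was therefore not shown by this test.

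Genes upstream of the effectors were counted in the same way. Of 30 genes for interferons, their receptors, JAK and STAT proteins, IRF factors, sensors and inhibitors, 3 decreased in 769-P (IRF9, IRF1 and IRF7). The background was 0.322% of all genes listed and 0.565% of the 11865. In 769-P 0 increased, and 0 of 30 were called in DU145. IRF9, the DNA-binding subunit of the interferon-activated factor, had 16.7, 7.36 and 5.06 FPKM in 769-P and 8.82, 8.49 and 5.34 FPKM in DU145. IRF1 had 15.8, 6.85 and 6.33 FPKM in 769-P, and IRF7 had 15.1, 6.03 and 4.80 FPKM. Both siRNA libraries lay below the control for 19 of the 30 in 769-P and for 16 in DU145. The background was 23.7% and 27.9% of all genes listed and 39.5% and 22.2% of the 11865. The median log2 fold change of the 30 genes was -0.23 in 769-P and -0.31 in DU145, beside -0.03 and 0.09 for the 11865 genes. With limma 0 of the 24 tested passed in either line, and 7 in 769-P and 2 in DU145 were lower at an unadjusted p under 0.05 (background 3.37% and 1.11%). IFNB1 was listed at 0 in the 3 libraries of 769-P. In the DU145 control IFNB1 and IFNA1 had 0.261 and 0.253 FPKM, and both siRNA libraries listed them at 0. These control values lay under the mean of 0.345 FPKM of olfactory receptor genes in that library.

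Promoter letters of the members were counted next. The list was chosen as known interferon-stimulated genes, whose promoters this element marks. Its frequency among the members is therefore not independent of that choice and is no result of the knockdown. The 12-letter element was found on either strand in 18 of 40 members with a promoter (45%) and in 0.322% of the 27305 genes of the table. The 10-letter form, GAAA, any 2 bases and GAAA, which the 12 letters contain, was found in 30 of 40 members (75%) and in 4.38% of genes. In 769-P the 18 listed members with the 12-letter element had a median log2 fold change of -1.45 and 11 decreased, and the 21 without it had a median of -1.03 and 9 decreased. In DU145 the medians were -0.41 and -0.20. Outside the list, the 17 other tested genes with the 12-letter element had a median of -0.11 in 769-P and -0.03 in DU145. Of these 17, 0 decreased in either line, where 0.565% of the 11865 genes decreased in 769-P and 0.329% in DU145. At those shares a count of 0 among 17 genes is no result about them. OAS1, SAMHD1, CMPK2 and XAF1 decreased in 769-P with neither form in these windows, and HERC5, MX1, RTP4, EPSTI1, IFIT5, EIF2AK2 and IFI44 hold the 12 letters and were not called there. Of these 7, the first 4 were under 1 FPKM in the 769-P control. A match of letters is a description of the window and not a measured binding site. GAAA repeats at other spacings were not searched, so a window without a match, such as that of OAS1, can still hold a response element.

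**Figure D4:**
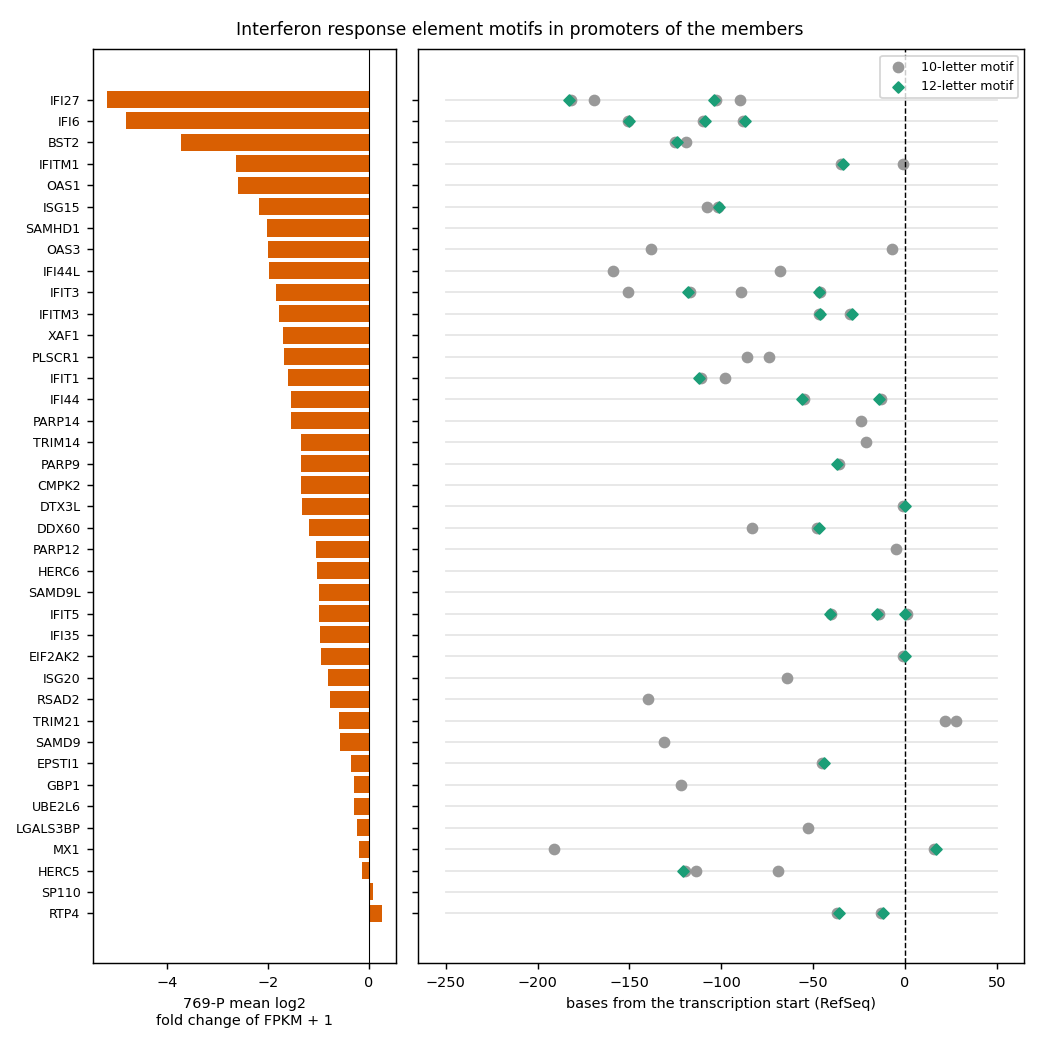
Left, mean log2 fold change of FPKM + 1 in 769-P for the 39 listed members with a RefSeq promoter, as bars. Right, the centre of each match to the 10-letter (grey circles) and the 12-letter (green diamonds) element in bases from the transcription start, over all RefSeq starts of a gene. Matches lie mostly before the start, and members with and without the 12-letter element occur over most of the range of change.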

How the data were processed

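Polyadenylated RNA of 6 cultures was sequenced as paired-end reads. Per the labels and the methods, the authors trimmed reads with cutadapt, checked them with FastQC, mapped them with TopHat2 to hg19 (GRCh37) and deposited FPKM values, calculated with Cufflinks, with 1 value per gene and library. Versions, annotation and the use of strand are not given in the sources used here. FPKM holds no read counts, so depth and the precision of a single value are unknown. Comparing low values put the depth at 0.681 to 1.41 times that of the 769-P control. Samples were grouped by line and siRNA from the labels. The methods name 2 biological replicates per sample and the labels a single library, so the 2 siRNAs of a line stood as replicates and p-values measure only the spread between these libraries.

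Values under the same symbol were summed, a pseudocount of 1 FPKM was added, and fold changes were taken on the log2 scale, which understates changes of low genes. A value of 0 was read as listed at 0, since genes that every cell uses, such as DAXX and CSNK2B, were listed at or near 0. DAXX and CSNK2B had 5 and 7 rows per library, whereas each listed member had a single row, so the members do not share that feature. Genes whose mean reached 1 FPKM were tested with limma 3.58.1 in R 4.3.3, with 4 groups, a trend on mean expression and Benjamini-Hochberg adjustment, after the script was tested on simulated data. Other steps used Python 3.11.15, pandas 2.3.3, numpy 2.4.6 and matplotlib 3.10.9. Windows of 100 bases of the longest coding transcript (GENCODE on GRCh37) were searched in all other genes. The members and lists were chosen with earlier results of these data known. Values of every library are given for members called at 2-fold in either line, passing limma, at 10 FPKM or more in a control, or singled out by the study (SAMHD1, IFI27, OAS1, TRIM14, XAF1 and LY6E), and the others by ranges and counts. Some further members are given in full because neighbouring genes are compared, chosen after their values were seen. Alternative settings were 0.1 FPKM as the pseudocount, median-centred libraries, subtraction of the mean olfactory receptor value, 1.5-fold, 5 FPKM as the level for expressed genes, each siRNA left out, and for limma no filter, a mean of 5 FPKM or more, quantile normalization, no trend and a replicate block.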

Additional observations from a re-analysis of the deposited data

Results flagged for a closer look

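The members below had log2 fold changes of unlike sign or size in DU145 and 769-P, and the difference passed a test for IFI27 alone. For IFI27 the difference of the log2 fold changes, DU145 minus 769-P, was 5.34 (limma adjusted p = 0.0467). In 7 other limma fits on all 6 libraries its adjusted p ranged from 0.0433 to 0.126, and leaving out 1 siRNA library gave 0.0735 or higher. The remaining 4 members lay on one side of the control with both siRNAs in one line and on the other side with both in the other line, and that pattern itself was not tested. The difference was 3.51 for IFITM1, 1.99 for LY6E and 1.20 for ISG20, all lower in 769-P and higher in DU145, with limma adjusted p values of 0.738, 0.311 and 0.999. RTP4 had a difference of -0.53, with all its values at or below 0.630 FPKM, and was below the level at which genes were tested. Of these 5 members, IFITM1 shares sequence with IFITM3, and its DU145 values differed 3-fold between the siRNA libraries, at 1.07 and 3.27 FPKM. The mean level of genes that the cells should lack, 0.345 FPKM in the DU145 control, is of the same order as the RTP4 values.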

How the results depend on the processing

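With 1 control library per line, no alternative bears on the control side. In 769-P the 23 decreased members became 22 with median-centred libraries (without DDX60), 24 with the background subtracted, 32 with a pseudocount of 0.1 FPKM and 33 at 1.5-fold, and 24 to 28 without 1 siRNA. In DU145 the 4 became 3 with the background subtracted (without OAS3), 6 with centring, 8 with the pseudocount of 0.1 FPKM, 8 at 1.5-fold, 5 without siRNA 1 and 9 without siRNA 2. Increased members were 1 (RTP4) in 769-P with the pseudocount of 0.1 FPKM, and 0 to 1 (IFITM1) in DU145 without 1 siRNA.

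With the pseudocount of 0.1 FPKM the median log2 fold change was -1.72 for all members in 769-P, -0.53 in DU145, -1.58 in 769-P for those expressed in both controls and -3.28 for those expressed in the 769-P control only. The last median was -1.76 with centring, -1.74 with the background subtracted and -1.54 at 5 FPKM for expressed genes, which gave -1.69 for both controls. In DU145 the median of all members was -0.13 with the background subtracted and -0.45 to -0.24 without 1 siRNA. In 769-P it was -1.41 to -1.04 without 1 siRNA.

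With limma 2 members passed in 769-P, 0 without the filter and 3 with the background subtracted, where BST2 was added (limma adjusted p = 0.0456). In DU145 1 (IFI6) passed without the filter (678 genes in all), 1 with quantile normalization and 1 with the replicate block, with limma adjusted p values of 0.0251, 0.0310 and 0.0338, and from 0.0546 to 0.796 in the other fits. For the difference between the lines, 0 passed with the pseudocount of 0.1 FPKM, 0 at a mean of at least 5 FPKM, 0 with quantile normalization, 0 with the replicate block, 4 without the filter (326 genes in all) and 0 to 0 without any 1 siRNA library. The lines share only the siRNA numbers, and the siRNA 2 minus siRNA 1 differences of the lines had a correlation of 0.27 over 11865 genes. Where a fit left 1 siRNA library in a line, that library was assumed to vary like the other line. Except where a value above shows it, the cause of these changes was not tested.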
